A study of Mus musculus with 12 samples.

Results

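The 6 control pools of fetal mouse testis, labelled control replicates 1 to 6, are described here out of the 12 RNA-seq libraries of the series. They were chosen by their label alone, and the other 6 libraries, which carry a conditional deletion of Nr2f2, were not compared with them. Each control library was made from 3 E14.5 testes pooled together, from embryos of genotype Nr2f2 f/f. In these embryos both copies of Nr2f2, the nuclear receptor COUP-TFII of interstitial progenitors, are flanked by loxP sites. The study gave tamoxifen to the pregnant dams before collection, and the controls were littermates without the Wt1 CreER driver, so all pools shared the floxed allele and the drug and held no recombinase. The floxed allele also carries a LacZ cassette beyond its second loxP site. A pool averages its testes and may mix littermates, and which litter each testis came from is not given in the sources used here, so a spread between pools cannot be divided into embryo, litter and handling. The question put to these data is which genes and cell types made up the baseline transcriptome of the control testis, and which genes differed between pools that carry the same label.

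At this age the mouse testis has testis cords, in which Sertoli cells enclose germ cells, and an interstitium with steroid-making fetal Leydig cells, their progenitors, blood vessels and macrophages. Sertoli cells secrete anti-Mullerian hormone and desert hedgehog, and fetal Leydig cells convert cholesterol to androgens through a chain of mitochondrial and microsomal enzymes. XY germ cells at this stage stop dividing and do not enter meiosis, whereas XX germ cells in the fetal ovary start meiotic prophase. A mesothelium covers the organ and the mesonephros lies beside it.

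Counts per library totalled 36649433, 24746477, 39965574, 21374816, 13601952 and 7044531 in control replicates 1 to 6. They were scaled by the TMM method and are given as CPM, counts relative to a fixed library total, and 14177 of 24470 genes averaged 1 CPM or more. A gene was called variable when its spread over the pools exceeded the spread of genes of like abundance by a goodness-of-fit test of edgeR at an adjusted p under 0.05. By this rule 311 of 14177 genes (2.19%) were variable over 6 pools, and 148 of 14115 (1.05%) over the 5 pools without control replicate 1, with 71 genes in both counts. Of the 311, 41 averaged under 1 CPM without control replicate 1 and were not tested over 5 pools. Against counting error alone, 12320 genes (86.9%) varied. The typical biological coefficient of variation between pools was 0.184, and 0.137 without control replicate 1. The pools are separate samples by their labels, and these tests measure the spread between them whatever its source. Values of single genes and lists are given in the order of control replicates 1 to 6.

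Control replicates 1 and 5 stood apart from the others before any single gene is considered. Control replicates 2, 3 and 4 correlated with each other at 0.995 across the log2 CPM of the genes kept, whereas control replicates 1 and 5 correlated at 0.952. Control replicate 1 was the highest pool for 31.2% of genes and the lowest for 28.9%, and control replicate 5 was the highest for 31.4% and the lowest for 36.2%. By Dixon's criterion on log2 CPM, control replicate 1 lay apart on the high side for 466 genes (3.29%) and on the low side for 172 (1.21%), and control replicate 5 for 160 (1.13%) and 522 (3.68%). No other pool lay apart on either side for more than 62 genes. In control replicate 5 the deviation from the 6-pool median followed base composition, with a median log2 deviation of 0.35 for genes of up to 40% GC and -0.39 for genes over 60% GC. It also followed transcript length, from 0.30 for transcripts of up to 1000 bases to -0.14 for those over 8000 bases. Control replicate 6 leaned the same way for genes of up to 40% GC (0.15), and control replicate 1 leaned the other way by length, from -0.26 for the shortest transcripts to 0.10 for the longest. By GC, control replicate 1 also leaned the other way, from -0.09 to 0.09, much like control replicates 3 (-0.06 to 0.08) and 4 (-0.06 to 0.09). The part of these gradients in the single-gene differences given next was not tested. In bulk samples, fewer cells of a type and less RNA per cell cannot be told apart.

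**Figure D1:**
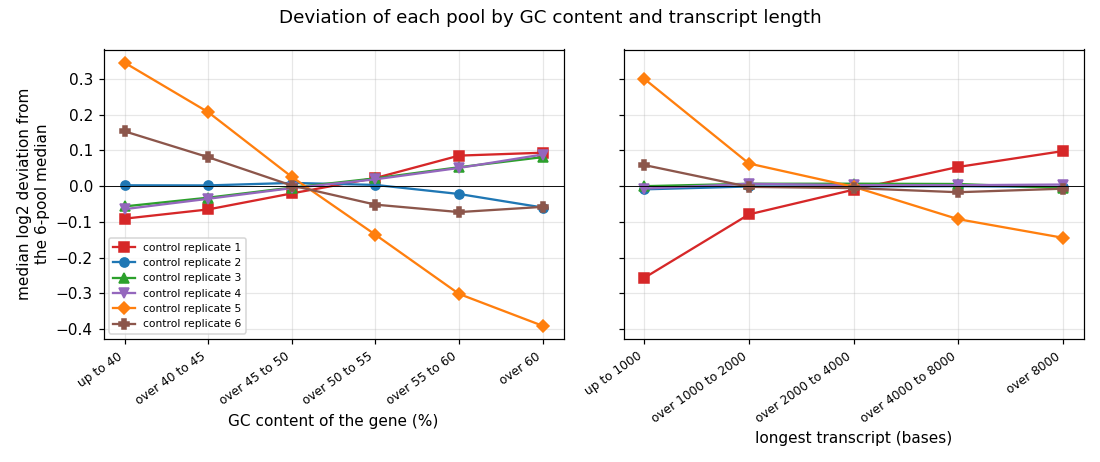
Median log2 deviation of each control pool from the 6-pool median, in bins of GC content (left) and longest transcript (right), 1 line for each pool. Control replicate 5 runs from 0.35 at up to 40% GC to -0.39 over 60% GC, while control replicates 2, 3 and 4 stay within 0.09 of zero in every bin.

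The most abundant transcripts per unit of length came from the mitochondrial genome and the translation machinery. Levels are compared between genes as CPM per kb of merged exon, which was available for 13773 of the genes kept. COX1, a subunit of cytochrome c oxidase encoded by mitochondrial DNA, led at 8329 ± 1915 CPM per kb (SD, n = 6 pools), ahead of CYTB at 4717 ± 958 CPM per kb and ND1 at 4638 ± 829 CPM per kb. The first of these reached 9861, 11743, 11088, 11861, 17962 and 14692 CPM, so that the pools did not share one level and control replicate 5 was highest. Eef1a1, which brings aminoacyl-tRNA to the ribosome, was the leading nuclear gene at 3611 ± 474 CPM per kb. Ribosomal protein genes followed, with Rplp1 at 1898 ± 413 CPM per kb, Rps3a1 at 1397 ± 323 CPM per kb, Rpl23a at 1081 ± 229 CPM per kb and Rpl4 at 1034 ± 212 CPM per kb. The 13 mitochondrially encoded genes took 2.49%, 2.95%, 2.73%, 3.02%, 4.17% and 3.59% of the counts of control replicates 1 to 6, and the 96 ribosomal protein genes took 4.19% to 6.90%, in both cases least in control replicate 1 and most in control replicate 5. None of either class was variable by edgeR's goodness-of-fit test, against 2.19% of all genes kept.

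Ranked by plain CPM, which favours long transcripts, the leading 25 genes shared 12 with the leading 25 per kb and brought in the matrix genes of the stroma. Col3a1, a fibrillar collagen chain, had 3229.5, 2941, 2659, 3163, 2676 and 3129.6 CPM and varied by a coefficient of variation (CV) of 8.45%. Also in that group were Col1a2 at 1912 ± 313 CPM and Col1a1 at 1597 ± 354 CPM, the chains of type I collagen. H19, an imprinted noncoding RNA of fetal tissues, had 2389, 1432, 1571, 1463, 1841 and 1628 CPM, and control replicate 1 lay above all other pools. Igfbp5, an IGF-binding protein, had 2107, 1540.0, 1620.3, 1563, 1536 and 1725 CPM, again with control replicate 1 highest and the other 5 pools within a CV of 4.96%. The chaperones Hsp90ab1 and Hspa8 had 2687 ± 405 CPM and 2474 ± 356 CPM. Lars2, the mitochondrial leucyl-tRNA synthetase, had 2121, 1686, 1719, 1687, 1484 and 875 CPM, lowest in control replicate 6, and was not variable at an adjusted p of 0.157 from edgeR.

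The transcriptome was spread over many genes. The leading 10 genes took 4.30% to 6.09% of counts, the leading 100 took 13.9% to 17.1% and the leading 1000 took 42.7% to 47.0%, each time least in control replicate 1 and most in control replicate 5. By mean level, 2354 genes lay between 1 and 5 CPM, 6130 between 20 and 100 CPM and 49 over 1000 CPM. The median CV was 24.8% in the lowest of these classes and 12.3% between 100 and 1000 CPM. Over all genes kept it was 15.1%, and 13.3% without control replicate 1.

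**Figure D2:**
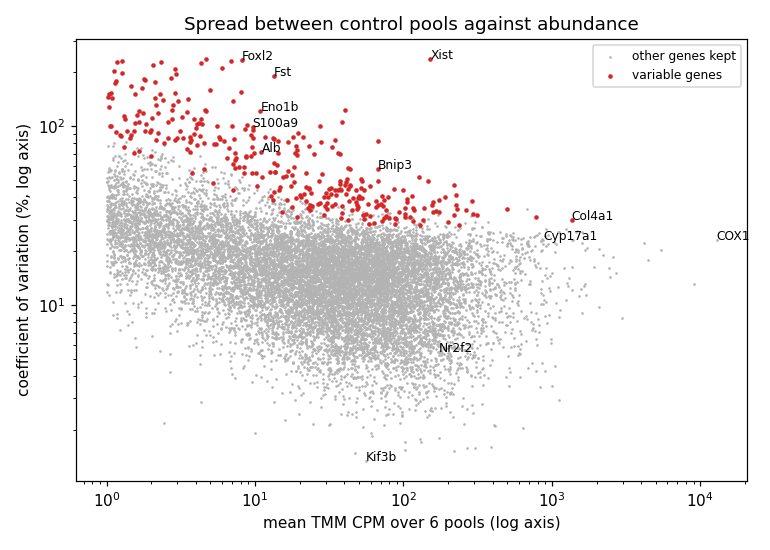
Coefficient of variation over the 6 control pools against mean TMM CPM, both on log axes, with 1 point for each of 14177 genes and the 311 variable genes in red. Xist and Foxl2 lie near the top with CVs of 236% and 233%, and Kif3b lies at the bottom at 1.35%.

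Sertoli cell genes were abundant in every pool. The 22 genes of this list summed to 2861, 3474, 3417, 3530.0, 2958 and 3176 CPM in control replicates 1 to 6, a CV of 8.71%. Amh, the hormone that regresses the Mullerian duct, was the highest member per length at 294 ± 72.8 CPM per kb, followed by the defensin Defb19 at 203 ± 38.0 CPM per kb and the cystatin Cst9 at 185 ± 39.5 CPM per kb. Amh had 499, 476, 629, 576, 273 and 495 CPM. Control replicate 5 lay below the other pools, and Amh was variable only over the 5 pools without control replicate 1 (adjusted p = 0.0352 by edgeR, against 0.208 over 6 pools). Sox9, the transcription factor that starts and keeps the Sertoli programme, had 63.4, 66.2, 74.8, 68.0, 35.3 and 56.0 CPM, also lowest in control replicate 5. Its relative Sox8 had 32.7 ± 7.32 CPM and Dhh, the hedgehog ligand read by interstitial cells, had 92.9 ± 17.2 CPM. Hsd17b3 and Hsd17b1, enzymes that reduce 17-ketosteroids in fetal Sertoli cells, had 39.3 ± 7.11 CPM and 16.8 ± 5.28 CPM, the second of them variable over 5 pools (adjusted p = 0.0463, edgeR). Inhbb, the activin B subunit, had 119 ± 25.2 CPM. Amhr2, the receptor of anti-Mullerian hormone, had 125, 66.1, 76.4, 66.8, 42.6 and 51.7 CPM, highest in control replicate 1. It was the single variable member of the list over 6 pools (adjusted p = 0.000865, edgeR) and was not variable without that pool (0.492).

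The fetal Leydig cell list varied more, with 2402, 3647, 2969.7, 3805, 3424 and 3266 CPM in control replicates 1 to 6 summed over its 12 genes. Control replicate 1 was lowest and lay outside the range of the other 5 pools, and 7 of the 12 genes were lowest there, against 28.9% of all genes kept. Cyp17a1, the 17-hydroxylase and lyase of androgen synthesis, led per length at 316 ± 72.7 CPM per kb, with Hsd3b1, the 3-beta-hydroxysteroid dehydrogenase, at 296 ± 74.5 CPM per kb and Cyp11a1, the side-chain cleavage enzyme that makes pregnenolone, at 175 ± 35.2 CPM per kb. Cyp17a1 had 518, 954, 768, 1002, 1065 and 947 CPM, with the pool of the lowest Leydig sum again below the rest. Its CV was 23.0% over 6 pools and 11.7% over 5, and it was not variable at an adjusted p of 0.384 in edgeR. Star, which carries cholesterol into mitochondria, had 148 ± 25.2 CPM, and Nr5a1, the steroidogenic factor shared by Sertoli and Leydig cells, had 277 ± 32.7 CPM. Lhcgr, the receptor of luteinizing hormone, had 62.5 ± 8.51 CPM.

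Of the 12 Leydig genes, 4 were variable, against 2.19% of all genes kept, and 3 of these were lowest in control replicate 5, against 36.2%. Scarb1, the receptor that takes up cholesterol from lipoproteins, had 270.3, 237, 221, 338, 101 and 202 CPM (adjusted p = 0.000888 over 6 pools and 2.71e-05 over 5, edgeR). Fdxr, the reductase that feeds electrons to mitochondrial steroid hydroxylases, had 112, 139, 132, 139.5, 51.8 and 90.6 CPM (adjusted p = 0.00428, edgeR). Gramd1b, a carrier of cholesterol between membranes, had 60.2, 60.04, 52.9, 76.7, 25.7 and 45.9 CPM (adjusted p = 0.0087, edgeR). In each of the 3 genes control replicate 4 was highest and control replicate 5 was lowest. In the GC bins of Scarb1, Fdxr and Gramd1b, the median log2 deviation of control replicate 5 was 0.03, -0.30 and -0.14. The part of the GC gradient in these values was not tested. Without control replicate 5 none of the 3 was variable, at adjusted p of 0.389, 0.734 and 0.726, and Scarb1 and Gramd1b were not variable without control replicate 4 either (0.062 and 0.216). Insl3, the Leydig hormone of testis descent, had 2.12, 5.81, 7.02, 15.05, 5.18 and 7.24 CPM, with control replicate 4 highest and control replicate 1 lowest (adjusted p = 0.00113, edgeR), and was not variable without control replicate 4 (0.631). It overlaps the gene Jak3, so its counts depend on how shared reads were assigned and are uncertain. The adrenal-like genes Mc2r, Cyp11b1 and Cyp21a1 were low, at 5.72 ± 1.90 CPM, 3.04 ± 0.67 CPM and 1.49 ± 0.591 CPM.

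Interstitial progenitor genes had the lowest CV of summed level among the 25 lists. Their 13 members summed to 1792, 2072, 2041, 2159, 1897 and 2029.8 CPM in control replicates 1 to 6, a CV of 6.60%. None of the 13 was variable over 6 pools, against 2.19% of all genes kept. Nr2f2, the gene flanked by loxP sites in these embryos (chromosome 7 of mm10 from 70351950 to 70366746), had 168, 176, 185, 183, 159 and 171 CPM, a CV of 5.48%. Tmsb10, an actin-binding peptide, led the list per length at 149.7 ± 11.3 CPM per kb, followed by Tcf21, a bHLH factor of the mesenchyme, at 64.4 ± 6.04 CPM per kb and Pdgfra, a platelet-derived growth factor receptor, at 54.8 ± 6.04 CPM per kb. Pdgfra had 449, 579, 501, 573, 591 and 602 CPM, with the control replicate 1 level below the others. Wnt5a had 322 ± 34.9 CPM, with a CV of 2.76% over the 5 pools without control replicate 1. Ptch1, the receptor and target of hedgehog signals, had 151, 142, 149, 171, 68.7 and 117 CPM, lowest in control replicate 5, and was variable over 5 pools (adjusted p = 0.00761, edgeR) but not over 6 (0.0593). Gli1, another hedgehog target, had 78.6, 103, 111, 119, 73.9 and 92.3 CPM, with control replicates 1 and 5 lowest. Other markers of this group were Nr2f1 at 10.3 ± 0.635 CPM, Inhba at 31.9 ± 4.41 CPM, Adam23 at 21.2 ± 5.11 CPM and Pdgfrb at 184 ± 37.9 CPM.

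Contractile and peritubular genes summed to 1815, 1997, 2029, 2038, 2299 and 2024 CPM in control replicates 1 to 6 over 14 members, a CV of 7.60%. None of the 14 was variable over 6 pools, against 2.19% of all genes kept, or without control replicate 1, against 1.05%. Acta2, smooth muscle actin, led per length at 122 ± 17.0 CPM per kb, then Myl9 at 107 ± 22.3 CPM per kb and Tpm1 at 86.5 ± 11.4 CPM per kb. Members of the list differed widely in level. Among the low ones were Cnn1 at 1.89 ± 0.446 CPM, Actg2 at 3.41 ± 0.616 CPM and Lmod1 at 3.23 ± 0.338 CPM. Smtn had 75.5 ± 10.9 CPM, Myh11 67.8 ± 4.91 CPM, Tagln 43.3 ± 4.37 CPM and Des 19.3 ± 1.12 CPM. Mylk, the myosin light chain kinase, was the steadiest member at 241, 253, 254, 260.0, 252 and 241 CPM.

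The matrix list of 19 genes summed to 18469, 16021, 15265, 17998, 12622 and 16099.7 CPM in control replicates 1 to 6, lowest in control replicate 5, where 13 of its members had their lowest value against 36.2% of all genes kept. Sparc, a secreted collagen-binding protein, led per length at 362 ± 59.3 CPM per kb, ahead of Col3a1 at 302 ± 25.5 CPM per kb and Col1a1 at 243 ± 53.9 CPM per kb. The basement membrane chains Col4a1 and Col4a2 were variable. Col4a1 had 1799, 1449.5, 1373, 1712, 681 and 1150.4 CPM (adjusted p = 0.0166, edgeR), and Col4a2 had 1069, 825, 809, 965, 391 and 635 CPM (adjusted p = 0.0103, edgeR), with control replicate 5 below the rest in both. Neither was variable without control replicate 5 (adjusted p = 0.793 and 0.498, edgeR) or without control replicate 4 (0.109 and 0.062), nor Col4a1 without control replicate 2 (0.0634). Dcn at 369 ± 107 CPM, Lum at 92.3 ± 27.0 CPM and Postn at 76.4 ± 23.4 CPM were highest in control replicate 5 instead, so the list did not shift as a whole. Postn, a matricellular protein, was variable over 5 pools (adjusted p = 0.0101, edgeR) and not over 6 (0.0778).

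The summed level of endothelial genes and of pericyte genes was highest in control replicate 1. Over 6 pools, 1 of 17 endothelial genes and 2 of the 9 pericyte genes kept were variable, against 2.19% of all genes kept. The endothelial list of 17 genes summed to 823, 548, 561, 643, 532 and 559.5 CPM in control replicates 1 to 6, and 13 of the 17 had their highest value in control replicate 1 against 31.2% of all genes kept. Cdh5, the endothelial cadherin, led per length at 29.3 ± 5.17 CPM per kb, then Eng at 15.3 ± 4.85 CPM per kb and Pecam1 at 13.0 ± 2.27 CPM per kb. Flt1, a receptor of vascular endothelial growth factor, was the single variable member, with 41.3, 18.5, 17.4, 22.3, 12.8 and 18.9 CPM (adjusted p = 0.00243, edgeR, and 0.875 without control replicate 1). Kdr, the other main receptor of that ligand, had 129, 75.5, 74.5, 73.9, 59.8 and 59.5 CPM and an adjusted p of 0.0661 in edgeR. Pericyte genes summed to 484, 349.6, 349, 404, 288 and 340.1 CPM in control replicates 1 to 6, and 5 of the 9 kept were highest in control replicate 1, against 31.2% of all genes kept. Of these Notch3, the receptor of mural cells, had 192, 127, 150.3, 150.4, 74.2 and 112 CPM and Abcc9, a potassium channel subunit, had 72.6, 28.5, 25.5, 31.8, 31.3 and 33.0 CPM, both variable over 6 pools (adjusted p = 0.0389 and 0.000518, edgeR) and highest in control replicate 1. The call for Notch3 was lost with DESeq2 size factors (0.0564), with upper quartile scaling (0.0755) and without any 1 pool (0.0783 to 0.38), and that for Abcc9 without control replicate 1 (adjusted p = 0.99998). Mcam, which led the list per length at 27.0 ± 1.53 CPM per kb, had 87.7, 95.4, 86.3, 97.8, 89.6 and 85.2 CPM and did not separate that pool. Rgs5, a regulator of G-protein signals in mural cells, had 34.5, 24.0, 14.0, 33.9, 29.3 and 33.0 CPM, lowest in control replicate 3, and was variable over 5 pools (adjusted p = 0.0102, edgeR).

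Surface epithelium genes summed to 707, 386, 491, 381, 579 and 449.7 CPM in control replicates 1 to 6. Aldh1a2, which makes retinoic acid, led per length at 49.4 ± 6.20 CPM per kb and had 122, 99.6, 126, 102, 125 and 95.5 CPM. Podxl, a sialomucin of epithelia and vessels, had 421, 153, 190.1, 152, 226 and 175 CPM and was variable (adjusted p = 0.000132, edgeR, and 0.837 without control replicate 1), highest in control replicate 1. Upk3b and Lrrn4, markers of mesothelium, were highest in control replicate 5 at 76.8 and 46.2 CPM, against ranges of 46.9 to 68.2 and 20.8 to 36.8 CPM in the other pools. The keratin Krt19 had 28.9, 14.6, 19.7, 12.1, 28.6 and 21.0 CPM, and was variable over 5 pools (adjusted p = 0.0398, edgeR). Of the lists drawn up for mesonephric tissue, the epithelial one summed to 278, 229, 275, 211, 179 and 218 CPM in control replicates 1 to 6, with 8 of 11 members kept. Its defining gene Pax2 stayed between 0.225 and 0.75 CPM, under the level for a gene to be kept, so the sum was not taken as a level of that tissue. Emx2, a homeobox factor of the urogenital ridge, led that list per length and had 74.4, 34.96, 41.6, 38.1, 39.4 and 38.1 CPM. Lhx1 and Ret were variable over 5 pools (adjusted p = 0.0244 and 0.0204, edgeR), with values of 4.13, 6.25, 7.70, 3.55, 2.40 and 3.84 CPM for the first. The mesenchymal list of Itga8, Ntrk3 and Rxfp2 summed to 78.7, 84.3, 89.6, 68.6, 137 and 113 CPM in control replicates 1 to 6, highest in control replicate 5.

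Macrophage and immune genes were at low levels, summing to 86.0, 99.4, 87.1, 93.5, 121 and 103 CPM in control replicates 1 to 6 over 19 genes. The complement genes C1qa and C1qb had 5.003 ± 1.52 CPM and 4.98 ± 1.18 CPM, and Csf1r, the receptor macrophages need, had 14.6 ± 1.69 CPM. Lyz2, lysozyme of myeloid cells and the list's leader per length at 9.77 ± 3.98 CPM per kb, was variable with 6.92, 21.6, 8.87, 14.3, 14.6 and 10.8 CPM (adjusted p = 0.047, edgeR), highest in control replicate 2. The call was lost when scaled by library size alone (0.0611) and without any 1 of control replicates 1, 2, 3, 4 and 6, at 0.051 to 0.896. Red cell genes were far more abundant per length, with the embryonic globin Hbb-y at 860.5 ± 207 CPM per kb and the adult globin Hbb-bs at 642 ± 84.5 CPM per kb. The erythroid list summed to 1662, 1547, 2117, 2272, 1632 and 1706 CPM in control replicates 1 to 6, and control replicates 3 and 4 were the highest pools. None of its 13 genes in the table was variable, against 2.19% of all genes kept. Hba-a1 and Hba-a2, at 370.3 ± 74.5 CPM and 161 ± 32.7 CPM, are near-identical copies whose split is uncertain. Schwann and neural genes summed to 52.1 ± 7.97 CPM, led by Erbb3 at 23.8 ± 5.44 CPM and Sox10 at 11.0 ± 3.11 CPM. Skeletal muscle genes summed to 8.05 ± 2.26 CPM, with Myh3, embryonic myosin, at 0.456, 3.06, 3.27, 0.888, 1.28 and 0.994 CPM (adjusted p = 0.0142, edgeR), highest in control replicates 2 and 3. Myh3 was not variable without control replicate 2 (0.0737) or 3 (0.142).

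Germ cell genes were well represented. The list summed to 1707, 2291, 2228, 2109, 2617 and 2322 CPM in control replicates 1 to 6 over 17 genes, lowest in control replicate 1. Dppa3, a maternal-effect gene of primordial germ cells, led per length at 341 ± 98.7 CPM per kb, followed by Dppa5a at 166 ± 58.1 CPM per kb and Dazl, an RNA-binding protein of germ cell commitment, at 155 ± 36.6 CPM per kb. Dazl had 423, 585, 597, 471, 819 and 649.6 CPM, and Ddx4, the germ cell helicase, had 201, 303, 271, 269, 361 and 308 CPM. Dnmt3l, a cofactor of DNA methylation in male germ cells, had 3.70, 24.0, 13.5, 18.7, 15.3 and 13.2 CPM and was variable (adjusted p = 3.44e-06, edgeR). Its value in control replicate 1 lay under the range of the other 5, which alone were not variable (0.468). Nanos2, which holds XY germ cells out of meiosis, had 22.8, 32.5, 30.3, 34.0, 32.1 and 38.9 CPM, lowest in the same pool. Taf7l, an X-linked germ cell factor, went the other way, with 83.3, 29.6, 31.9, 34.8, 41.4 and 38.8 CPM (adjusted p = 0.000473, edgeR, and 0.99998 without control replicate 1). Dppa5a had 59.2, 90.6, 116, 77.1, 162 and 114 CPM, highest in control replicate 5 (adjusted p = 0.00519, edgeR, and 0.0612 without control replicate 1). Utf1, a chromatin factor of pluripotent cells, had 67.7, 81.8, 105, 89.7, 43.3 and 76.6 CPM, and was variable over 5 pools (adjusted p = 0.024, edgeR).

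Meiosis genes were detected in all pools, and their sum was highest in control replicate 1. Their 20 members summed to 790.0, 517, 529, 446, 692 and 572 CPM in control replicates 1 to 6, with 10 highest in control replicate 1 and 8 in control replicate 5, against 31.2% and 31.4% of all genes kept. Over 6 pools, 6 of the 20 were variable. Of these 6, Mei1 and Syce3 passed the filter of 1 CPM only through control replicate 1 and were not tested without it. The other 4 were tested over 5 pools and not variable (adjusted p from 0.0682 to 0.99998). Among all 14075 genes kept both ways, 270 were variable over 6 pools, by a test that used control replicate 1. Sycp3, a lateral element of the synaptonemal complex and the leader of the list per length at 34.5 ± 19.9 CPM per kb, had 93.7, 32.6, 24.6, 31.8, 42.0 and 37.4 CPM (adjusted p = 3.09e-07, edgeR). Smc1b, a meiotic cohesin, had 177, 73.1, 79.3, 54.9, 119 and 91.8 CPM, and Sycp1, the transverse filament, had 136, 57.4, 70.6, 48.8, 91.6 and 68.9 CPM. Rec8, the meiotic kleisin, had 28.6, 10.4, 12.8, 8.60, 9.23 and 11.9 CPM, and Mei1 and Syce3, at 9.77 and 4.80 CPM in control replicate 1, did not pass 0.994 and 1.14 CPM in any other pool. Sycp1 was not variable without control replicate 4 either (0.067). In these 6 genes every other pool was below control replicate 1. Stra8, the gatekeeper of meiotic entry, did not follow them. It had 5.23, 3.47, 3.10, 3.64, 9.98 and 7.81 CPM, highest in control replicates 5 and 6, and was variable over 5 pools (adjusted p = 0.000539, edgeR). Hormad1, which marks unsynapsed axes and came next per length, had 41.1, 40.2, 41.5, 30.0, 65.0 and 50.9 CPM.

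Xist and 8 genes of the fetal ovary were higher in control replicate 1 than in every other pool, several of them from levels near 0. Xist, the noncoding RNA behind X inactivation in XX cells (chromosome X of mm10 from 103460373 to 103483233), had 884, 5.16, 5.12, 6.35, 5.48 and 5.68 CPM. The level in control replicate 1 was 161 times the median of the other 5 (adjusted p = 4.56e-250, edgeR), among which the CV was 8.998% and Xist was not variable (adjusted p = 0.99998). Foxl2, the transcription factor of granulosa cells, had 46.8, 0.403, 0.525, 0.327, 0.225 and 0.426 CPM, and its antisense neighbour Foxl2os had 39.1, 0.323, 0.525, 0.794, 0.225 and 0.284 CPM. Fst, an activin-binding protein of the fetal ovary, had 65.1, 3.06, 3.22, 2.80, 2.93 and 3.27 CPM, and Irx3 had 31.6, 0.766, 0.725, 1.17, 0.45 and 0.994 CPM. Runx1 had 33.1, 3.02, 2.67, 2.80, 2.93 and 3.41 CPM and Lgr5, an R-spondin receptor, had 49.9, 11.7, 11.7, 12.2, 9.46 and 12.9 CPM. Bmp2 had 23.6, 7.34, 7.87, 8.22, 5.33 and 6.25 CPM. These 6 genes of the list, Foxl2, Fst, Irx3, Runx1, Lgr5 and Bmp2, were variable over 6 pools (adjusted p from 9.25e-81 to 0.000195, edgeR). Of the 6 list members also kept without control replicate 1, 4 were variable over 6 pools, against 270 of the 14075 genes kept both ways. The test that called them used that pool. Foxl2, Foxl2os and Irx3 passed the filter of 1 CPM only through control replicate 1 and were not tested without it, and Fst, Runx1, Lgr5 and Bmp2 were not variable over 5 pools (adjusted p of 0.99998 in each, edgeR). Wnt4 and Rspo1, which the fetal testis also expresses, had 109, 61.4, 58.8, 62.8, 50.8 and 58.8 CPM and 36.1, 15.1, 18.6, 16.7, 18.8 and 19.3 CPM, again highest in control replicate 1 with adjusted p of 0.144 and 0.111 in edgeR. Of the 8 kept members, the 6 other than Foxl2 and Irx3 were kept without control replicate 1 too, and all 6 had their highest value there, against 30.7% of the 14075 genes kept both ways. The list summed to 399, 103, 105, 108, 91.3 and 106 CPM in control replicates 1 to 6.

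The promoters of Foxl2 and Foxl2os are shown because these divergent neighbours were high together in 1 pool. Their windows of 250 bases before to 50 after the start, from RefSeq on GRCm38.p6, overlap by 204 bases on opposite strands, while the annotated genes themselves do not overlap. The Foxl2 window, on the plus strand at chr9:98955357-98955656, is printed with the shared bases in capitals.
Foxl2: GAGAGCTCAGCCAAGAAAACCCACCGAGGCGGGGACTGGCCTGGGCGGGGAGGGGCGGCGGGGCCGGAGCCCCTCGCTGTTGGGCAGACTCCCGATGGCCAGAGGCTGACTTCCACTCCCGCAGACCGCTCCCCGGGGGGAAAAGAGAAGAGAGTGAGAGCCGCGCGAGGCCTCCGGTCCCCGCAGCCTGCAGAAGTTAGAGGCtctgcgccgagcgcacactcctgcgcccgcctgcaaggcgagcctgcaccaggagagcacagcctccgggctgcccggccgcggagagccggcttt

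Y-linked genes were present in all 6 pools and lowest in control replicate 1. The list of 9 summed to 281, 460.1, 441, 423, 617 and 550.3 CPM in control replicates 1 to 6. All 7 kept members were lowest in control replicate 1, against 28.9% of all genes kept, and 6 of the 7 were highest in control replicate 5. Eif2s3y, a translation initiation subunit, had 60.5, 114, 109, 105, 158 and 143 CPM (adjusted p = 0.0282, edgeR) and Uty, a histone demethylase relative, had 29.0, 53.6, 48.8, 50.9, 78.7 and 72.2 CPM (adjusted p = 0.0131, edgeR). Neither was variable without control replicate 1 (0.734 and 0.512) or without control replicate 6 (0.0797 and 0.0797). Ddx3y had 61.0, 85.4, 78.2, 79.0, 104 and 103 CPM, Kdm5d 45.1, 72.0, 68.9, 68.7, 95.4 and 83.1 CPM and Uba1y 79.4, 120.5, 125, 105, 164 and 133 CPM, none of them variable. Usp9y, Zfy1 and Zfy2 had 8.32 ± 3.22 CPM, 4.03 ± 1.33 CPM and 0.752 ± 0.334 CPM. Sry, the sex-determining gene whose expression ends before this age, had 0 counts in 5 pools and 1 count in control replicate 4. A count of 0 allows up to 0.0805 CPM in control replicate 1 and up to 0.426 CPM in control replicate 6, by counting error only. The Sertoli sum was also lowest in control replicate 1, at 2861 CPM, and 10 of its 22 genes were lowest there, Inha at 137 CPM among them, against 28.9% of all genes kept. Another 11 were lowest in control replicate 5, against 36.2%. In control replicate 1 Sox9 and Amh had 63.4 and 499 CPM, within the range of the other pools. The library labelled control replicate 1, whose label gives testis, held RNA of Sertoli markers and of Y-linked genes as well as Xist and ovarian RNA.

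**Figure D3:**
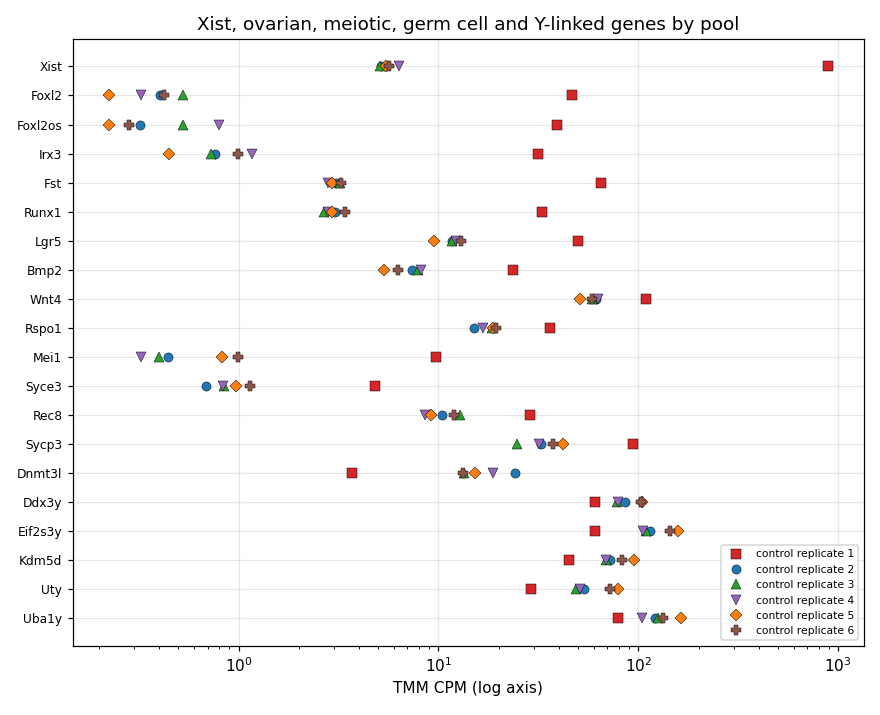
TMM CPM, on a log axis, of Xist and of ovarian, meiotic, germ cell and Y-linked genes in each of the 6 control pools. Control replicate 1 (red squares) lies to the right of all other pools for Xist and the ovarian and meiotic genes shown, at 884 CPM for Xist, and to the left for Dnmt3l and the Y-linked genes.

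Among the 25 variable genes of at least 5 CPM with the highest CV over 6 pools, 22 were highest in control replicate 1, against 31.2% of all genes kept. Foxl2, Foxl2os and Irx3, among the 22, passed the filter of 1 CPM only through that pool. Beyond those above, Tnfrsf19, a receptor of the tumour necrosis factor family, had 140.1, 17.5, 18.5, 17.4, 25.1 and 21.9 CPM and Synj1, a phosphoinositide phosphatase of vesicle recycling, had 122, 23.5, 24.2, 26.6, 15.9 and 20.03 CPM. Dcaf12l1, an X-linked gene, had 83.5, 15.5, 16.4, 16.6, 16.3 and 16.1 CPM and the other 5 pools had a CV of 2.59%. Zfp541, a zinc finger protein of meiotic cells, had 27.1, 3.35, 3.10, 3.74, 2.70 and 2.84 CPM. Ybx2, an RNA-binding protein of germ cells, had 55.6, 11.5, 15.2, 13.4, 8.41 and 13.5 CPM, and Cd44, a hyaluronan receptor, had 26.9, 4.80, 3.75, 6.03, 5.63 and 5.82 CPM. Mt1, a metallothionein, had 31.8, 5.64, 4.95, 6.07, 9.98 and 11.9 CPM, highest in control replicate 1 with control replicates 5 and 6 next. Also of this group and highest in control replicate 1 were Slc35f1, D630039A03Rik, Bhlhe41, Ccnb3, Itpr2, Lzts1 and Wnk2, at 21.2, 16.8, 28.7, 26.3, 58.5, 15.7 and 26.3 CPM. Without control replicate 1 none of these 14 genes was variable (adjusted p from 0.0803 to 0.99998, edgeR). Of the 311 variable genes, 246 were highest in control replicate 1. Among the 270 variable genes that were also kept without that pool, 205 (75.9%) were highest in it, against 30.7% of all genes kept both ways, and the test that called them used that pool. Of the variable genes, 125 (40.2%) were lowest in control replicate 5, against 36.2% of all genes kept.

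Without control replicate 1, the 25 variable genes with the highest CV shared 3 with the 25 over 6 pools. Eno1b, an enolase gene, had 0.778, 8.63, 29.3, 25.1, 0.675 and 0.71 CPM, with control replicates 3 and 4 high, control replicate 2 between, and the remaining pools under 1 CPM. Eno1b is a near-identical copy of Eno1, and so its counts depend on the assignment of shared reads and are uncertain, as are those of the ribosomal and mitochondrial pseudogenes Rpl34-ps1, at 10.5, 2.30, 20.7, 19.4, 29.6 and 16.9 CPM, and Ndufs5-ps, at 6.25, 11.7, 7.72, 0.841, 13.8 and 10.1 CPM. The calls for these pseudogenes were lost without control replicate 2 for the first (0.171) and without control replicate 4 for the second (0.952). The alarmins S100a8 and S100a9, calcium-binding proteins of neutrophils, were high in control replicate 2. S100a8 had 1.85, 24.7, 5.1999, 9.06, 4.88 and 5.82 CPM and S100a9 had 2.58, 28.5, 4.40, 8.60, 6.15 and 7.53 CPM (adjusted p = 4.45e-11 and 6.95e-12, edgeR), and neither was variable without that pool (0.228 and 0.579). Lyz2 was also highest in that pool, whereas the immune sum of 99.4 CPM there was not. Otx2, a homeobox factor, had 3.81, 4.76, 12.8, 3.97, 6.53 and 5.40 CPM, and Lefty1, a Nodal antagonist, had 10.2, 6.98, 16.2, 4.91, 6.98 and 8.10 CPM, both highest in control replicate 3 and variable over 5 pools (adjusted p = 0.00112 and 0.000992, edgeR). Il33, an alarmin of stromal and endothelial nuclei, had 6.60, 5.60, 6.15, 4.49, 13.8 and 6.96 CPM, highest in control replicate 5.

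The S100a8 promoter, at chr3:90668821-90669120 on the plus strand of GRCm38.p6, is shown for the motif TATAAA (capitals), which begins at position -30 relative to the start.
S100a8: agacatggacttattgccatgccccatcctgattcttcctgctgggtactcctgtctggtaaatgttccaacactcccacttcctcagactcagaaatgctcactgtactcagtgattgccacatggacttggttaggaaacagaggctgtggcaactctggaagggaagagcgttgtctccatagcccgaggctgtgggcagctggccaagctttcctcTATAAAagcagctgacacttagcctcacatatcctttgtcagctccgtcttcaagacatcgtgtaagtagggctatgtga
TATAAA was searched on both strands of the 300-base windows of 11207 of the 14177 genes kept that had one. It occurred in 780 of the 11207 windows (6.96%), in 30 of the 234 windows of variable genes (12.8%) and in 53 of 943 windows (5.62%) among the tenth of genes of at least 5 CPM with the lowest CV. The S100a9 window holds TATAAA too, with its first base at the annotated start. A match is a description of letters and not of a site in use.

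Genes of the hypoxia response and glycolysis divided the pools in another way. The list of 14 summed to 3268, 2055, 2035, 1982, 3321 and 2695 CPM in control replicates 1 to 6, high in control replicates 1 and 5, intermediate in control replicate 6 and low in control replicates 2, 3 and 4. Every member was highest in control replicate 1 (5 genes) or control replicate 5 (9 genes), pools that were highest for 31.2% and 31.4% of all genes kept. Of the 14, 5 were variable over 6 pools, against 2.19% of all genes, and 6 over the 5 pools without control replicate 1, against 1.05%. Ldha, which turns pyruvate to lactate, had 389, 189, 193, 197, 437 and 324 CPM (adjusted p = 0.000819, edgeR). Pgk1, phosphoglycerate kinase, had 268, 145, 151, 149, 371 and 264 CPM (adjusted p = 0.000226, edgeR). Bnip3, a mitophagy receptor induced by low oxygen (chromosome 7 of mm10 from 138890836 to 138909506), had 72.0, 36.2, 39.0, 34.0, 129 and 94.9 CPM (adjusted p = 5.65e-11, edgeR). In all 14 genes, the lowest of control replicates 1, 5 and 6 was above the highest of control replicates 2, 3 and 4, against 8.07% of all genes kept, a division of the pools that was seen in these values first. Vegfa, the vascular growth factor, had 255, 80.6, 84.3, 86.3, 126 and 136 CPM, and Ndrg1, a stress-induced gene, had 67.9, 24.6, 21.4, 24.3, 49.9 and 34.8 CPM, both variable over 6 pools (adjusted p = 1.25e-06 and 5.21e-06, edgeR), Vegfa not without control replicate 1 (0.251). Pdk1 and Ankrd37 were variable over 5 pools only, with 143, 87.5, 94.0, 81.4, 155 and 145 CPM for the kinase and 6.47, 3.79, 4.57, 4.07, 11.7 and 8.52 CPM for Ankrd37. Aldoa, the aldolase that led the list per length at 167 ± 40.3 CPM per kb, had 707, 411, 429, 398, 529 and 447 CPM and Eno1 had 836, 678, 638, 630.1, 977 and 756 CPM, neither variable. Kdm3a, a demethylase of the same response, had 274, 255, 216, 233, 289.8 and 269.6 CPM and a CV of 10.7%. By length, control replicates 1 and 5 leaned opposite ways, at a median log2 deviation of -0.26 and 0.30 for transcripts of up to 1000 bases. By GC they did so too, at -0.09 and 0.35 for genes of up to 40% GC. The part of the GC and length gradients in this difference was not tested.

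The promoters of Bnip3, Ldha and Pgk1, examples chosen after their values were seen, follow with the letters ACGTG, one form of the core of the hypoxia response element, and their reverse complement in capitals, from RefSeq on GRCm38.p6. Bnip3 lies at chr7:138909457-138909756 on the minus strand, Ldha at chr7:46845554-46845853 on the plus strand and Pgk1 at chrX:106186850-106187149 on the plus strand.
Bnip3: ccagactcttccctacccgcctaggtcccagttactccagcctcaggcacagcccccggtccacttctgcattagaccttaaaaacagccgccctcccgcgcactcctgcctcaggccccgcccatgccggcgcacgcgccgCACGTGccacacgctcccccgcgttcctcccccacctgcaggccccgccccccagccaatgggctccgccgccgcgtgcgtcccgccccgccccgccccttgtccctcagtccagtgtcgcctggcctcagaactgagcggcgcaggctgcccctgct
Ldha: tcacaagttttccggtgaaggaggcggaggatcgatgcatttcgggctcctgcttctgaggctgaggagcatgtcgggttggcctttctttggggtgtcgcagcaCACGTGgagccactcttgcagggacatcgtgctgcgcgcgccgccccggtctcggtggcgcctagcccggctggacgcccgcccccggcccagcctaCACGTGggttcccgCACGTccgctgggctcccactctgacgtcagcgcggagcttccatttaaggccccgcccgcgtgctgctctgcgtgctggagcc
Pgk1: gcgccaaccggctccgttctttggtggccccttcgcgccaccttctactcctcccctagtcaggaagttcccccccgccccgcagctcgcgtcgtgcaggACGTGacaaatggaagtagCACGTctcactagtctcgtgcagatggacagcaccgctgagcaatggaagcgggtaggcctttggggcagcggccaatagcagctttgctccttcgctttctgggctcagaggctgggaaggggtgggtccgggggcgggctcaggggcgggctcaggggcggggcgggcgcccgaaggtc
The motif, on either strand, occurred in 7 of 13 windows of this list (53.8%) and in 2849 of 11207 windows of all genes kept (25.4%). The palindrome CACGTG counts on both strands. The list was chosen with its values known, so the share is a description.

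**Figure D4:**
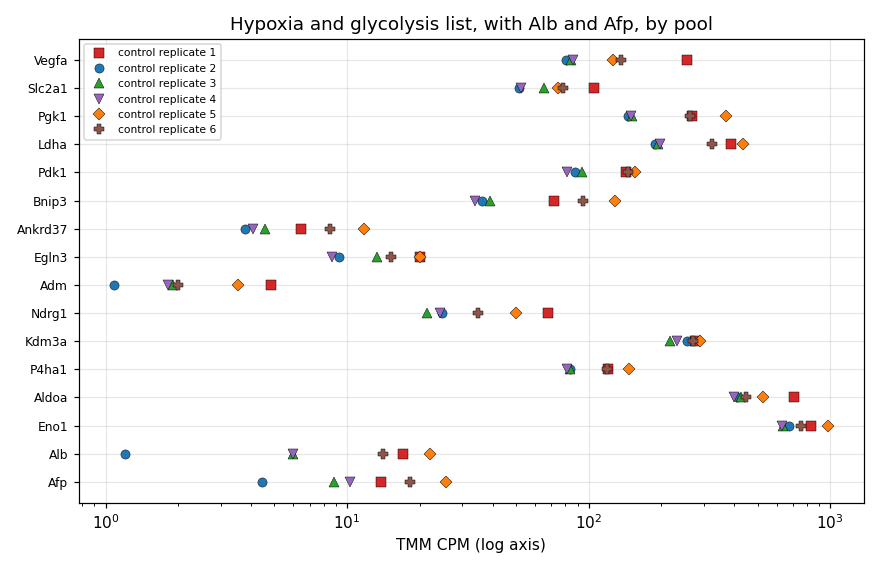
TMM CPM, on a log axis, of the 14 genes of the hypoxia and glycolysis list and of Alb and Afp in each control pool. For all 14 list genes, control replicates 1, 5 and 6 lie to the right of control replicates 2, 3 and 4, by a narrow gap in Kdm3a (270 against 255 CPM) and a wide one in Bnip3 (72.0 against 39.0 CPM).

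Liver transcripts were scarce and uneven. Alb, serum albumin, had 17.0, 1.21, 5.95, 5.98, 22.1 and 14.1 CPM and Afp, fetal alpha-fetoprotein, had 13.8, 4.44, 8.85, 10.2, 25.6 and 18.2 CPM, and both were variable with and without control replicate 1 (adjusted p = 6.42e-14 and 8.39e-06 over 6 pools, edgeR). The call for Afp was lost without control replicate 2 (0.0673). The order of the pools was the same in both genes at its ends, with control replicate 5 highest and control replicate 2 lowest. Both genes also divided the pools as the hypoxia list did, with control replicates 1, 5 and 6 all above control replicates 2, 3 and 4, against 8.07% of all genes kept. Apoa1, an apolipoprotein, had 1.502, 0.323, 1.05, 0.934, 2.85 and 1.56 CPM and was variable over 5 pools (adjusted p = 0.00296, edgeR). Ttr, Fgb and Serpina1a stayed under the level of 1 CPM for a gene to be kept.

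Genes of cell division were expressed in all pools, and none of the 29 in both lists was variable by edgeR's goodness-of-fit test, against 2.19% of all genes kept. No call among 29 genes lies near that share. At an unadjusted p under 0.05, 2 of the 29 passed, a count that was not set against all genes kept. The G2/M list of 17 genes summed to 2540.2, 3327, 3441, 3084, 4098 and 3622 CPM in control replicates 1 to 6 with 14 genes lowest in control replicate 1 and 11 highest in control replicate 5, against 28.9% and 31.4% of all genes kept, and the replication list of 12 to 1616, 2048, 2072, 1935, 1969.9 and 1806 CPM in control replicates 1 to 6. Top2a, a topoisomerase of dividing cells, led the first list per length at 84.3 ± 20.1 CPM per kb and had 518, 718, 745, 652, 1034 and 892 CPM, and Pcna, the replication clamp, led the second at 67.1 ± 13.2 CPM per kb. Mki67, which marks cycling cells, had 469.6, 550.4, 568, 529, 609.5 and 571 CPM. Immediate early genes, which respond to tissue handling, summed to 215, 219.9, 226, 238, 185 and 208 CPM in control replicates 1 to 6, a CV of 8.38%, and Fos was at 1.03 ± 0.408 CPM. Jun, which led that list per length at 18.1 ± 2.03 CPM per kb, had 60.5, 55.8, 63.8, 64.9, 48.1 and 53.6 CPM. Egr1 had 22.3, 18.5, 16.8, 21.9, 7.81 and 12.5 CPM, lowest in control replicate 5, and was variable over 5 pools (adjusted p = 0.0151, edgeR). The heat shock list summed to 3407, 4683, 4499, 4327, 5485 and 4407 CPM in control replicates 1 to 6, and its inducible member Hspa1a had 12.4, 14.8, 14.3, 17.9, 5.40 and 9.80 CPM, variable over 5 pools (adjusted p = 0.00328, edgeR).

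**Figure D5:**
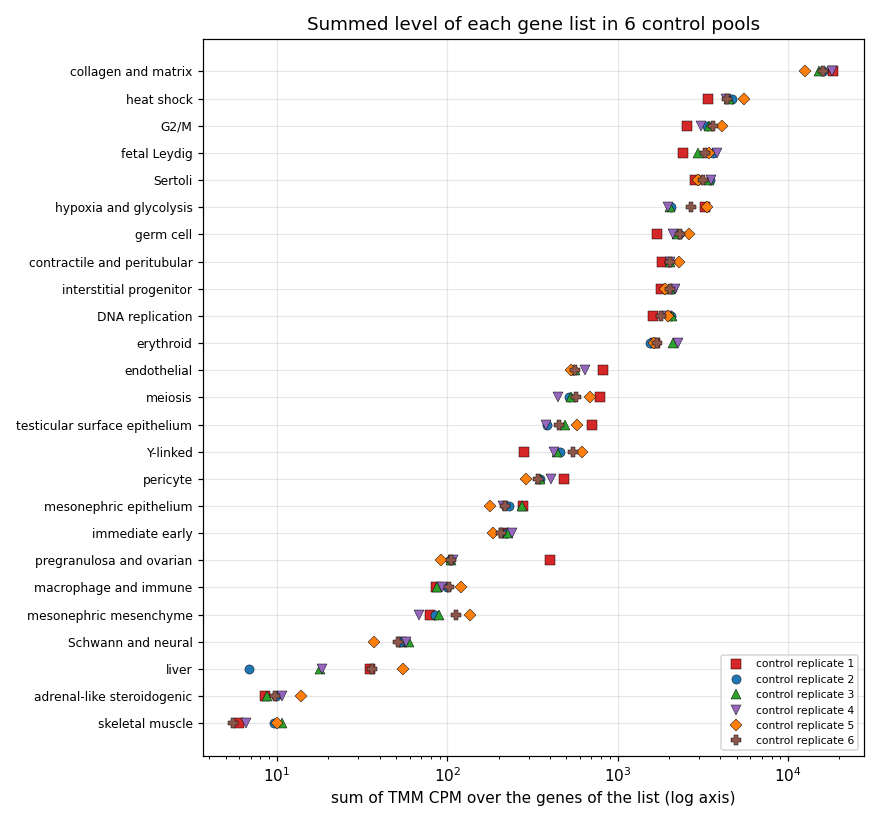
Summed TMM CPM of each of the 25 gene lists, on a log axis and in order of their mean, with 1 symbol for each control pool. The pregranulosa and ovarian list shows control replicate 1 at 399 CPM apart from the other pools, and the liver list shows the widest spread among the others.

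At the other end, some genes hardly differed between pools whose totals ranged from 7044531 to 39965574 counts. Among the genes that averaged 50 CPM or more, Kif3b, a motor subunit of intraflagellar transport, had the lowest CV at 1.35%, with 55.8, 57.3, 55.2, 55.6, 55.8 and 56.7 CPM. Vdac1, the channel of the outer mitochondrial membrane, followed with 214, 218, 219, 215, 223 and 215 CPM. Qk, an RNA-binding protein of splicing, had 384, 391, 396, 385, 379.7 and 393 CPM. Esyt2, Nfib, Khdc4, Dlg1, Map3k7 and Ankhd1 were also among the 10 of lowest CV, with means of 102 ± 1.59 CPM, 266 ± 4.24 CPM, 103 ± 1.77 CPM, 131 ± 2.25 CPM, 129 ± 2.30 CPM and 174 ± 3.12 CPM and CVs of at most 1.79%.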

How the data were processed

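RNA of 6 control pools, each of 3 testes at E14.5, was sequenced from stranded poly(A) libraries. Per the labels and the study's methods, the authors trimmed read pairs with Trim Galore 0.6.7, aligned them to mm10 with STAR 2.5 and counted them by strand on RefSeq genes with featureCounts of Subread 1.5.0-p1. They deposited raw counts per gene without normalization. Groups were taken from the labels, and no control column was left out.

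The counts were scaled by TMM in edgeR 4.0.16 (R 4.3.3), and genes averaging 1 CPM or more were kept. Variable genes came from the goodness-of-fit test to the trended dispersion in an intercept model, with Benjamini-Hochberg adjustment and a threshold of 0.05, over the 6 pools and again without control replicate 1. Exon length and GC content came from GENCODE M21 by Entrez Gene number. Log2 CPM used a prior count of 2. A count of 0 was read as allowing up to 3 counts. Alternatives were other scalings and filters, dispersion outliers of DESeq2 1.42.0, and leaving out libraries.

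The genes named were the 25 highest by CPM and the 25 highest per kb in part, the 3 highest per kb and the variable members of each of the 25 lists in the main, the most variable genes of at least 5 CPM (25 over 6 pools, 15 over 5 pools by the test of those 5), the 10 steadiest of at least 50 CPM, and the study's interstitial and Leydig markers, Nr2f2, Xist and Y-linked genes. Other list members were added as background. Some genes that this rule names are not reported here. The pools, members and lists were chosen with earlier results of these data known. In simulated pools of 14177 genes, each shifted gene was raised in 1 pool, and that pool differed from gene to gene. The test recovered 8 of 50 genes at 2-fold, 47 at 4-fold, 49 at 8-fold and 50 at 16-fold, with 3 false calls among 157. Counts were drawn independently for each gene, without the gradients or the joint shift of many genes in 1 pool seen here.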

Additional observations from a re-analysis of the deposited data

Results flagged for a closer look

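A pool was singled out when its gap to the nearest other pool exceeded the share of the whole range of the 6 CPM values that Dixon's 95% criterion sets. Chance alone gives about 1 in 20 groups. Of 211 values tested (25 list sums and 186 genes named in the report), 50 met the rule, 41 of them in control replicate 1 and 4 in control replicate 5. Since most of the genes named were chosen for their spread, that share is not a measure of how often pools stand apart.

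Xist and ovarian genes were higher in control replicate 1 than in the nearest other pool, with Bmp2 at 23.6, Foxl2 at 46.8, Foxl2os at 39.1, Fst at 65.1, Irx3 at 31.6, Lgr5 at 49.9, Rspo1 at 36.1, Runx1 at 33.1, Wnt4 at 109 and Xist at 884 CPM. The summed ovarian list was also apart there at 399 CPM, and the nearest other pool had 108 CPM. Germ cell and meiotic genes apart on the high side in the same pool were Ccnb3 at 26.3, Mei1 at 9.77, Rec8 at 28.6, Syce3 at 4.80, Sycp3 at 93.7, Taf7l at 83.3, Ybx2 at 55.6 and Zfp541 at 27.1 CPM. Vascular, epithelial and growth factor genes apart there were Abcc9 at 72.6, Emx2 at 74.4, Flt1 at 41.3, Igfbp5 at 2107, Kdr at 129, Podxl at 421 and Vegfa at 255 CPM. Other genes apart on the high side in control replicate 1 were Bhlhe41 at 28.7, Cd44 at 26.9, D630039A03Rik at 16.8, Dcaf12l1 at 83.5, Fos at 1.82, Itpr2 at 58.5, Lzts1 at 15.7, Mt1 at 31.8, Slc35f1 at 21.2, Synj1 at 122, Tnfrsf19 at 140.1 and Wnk2 at 26.3 CPM. On the low side of control replicate 1 were Defb19 at 50.4, Tmsb10 at 163 and Wnt5a at 253 CPM. Y-linked genes, at a summed 281 CPM in that pool and at 423 CPM or more elsewhere, were lowest there without passing the rule. Whether this pool included an ovary or an XX embryo was not tested, and the library's transcripts of up to 1000 bases were also low by a median log2 deviation of -0.26.

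In control replicate 5, Eef1a1 at 11254 and Il33 at 13.8 CPM were apart on the high side, and Erbb3 at 13.4 CPM was apart on the low side, as was the Schwann and neural sum at 36.9 CPM. The GC gradient of this library was not tested as a part of these values. In control replicate 2, S100a8 at 24.7 and S100a9 at 28.5 CPM were apart on the high side, and Khdc4 at 99.7 CPM was apart on the low side, within a range of a few percent. In control replicate 3, Otx2 at 12.8 CPM was apart on the high side. Sry had 1 count in control replicate 4 (0.0467 CPM) and 0 in the others, which counting error alone can give.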

How the results depend on the processing

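The count of variable genes was 311 over 6 pools. It fell within 304 to 322 under DESeq2 size factors, upper quartile scaling and library size alone, and was 294 with filterByExpr, 226 among genes averaging 5 CPM or more and 408 with no filter. It moved to 90 when counted as DESeq2 dispersion outliers. Leaving out each control replicate in turn gave 148 to 338, with 148 without control replicate 1, and 134 without control replicates 1 and 5, a setting chosen after seeing the data. The common BCV of 0.184 ranged from 0.137 (without control replicate 1) to 0.198 when each replicate was left out, and was 0.0809 without control replicates 1 and 5. The cause of the lower count of DESeq2 was not tested. Genes kept numbered 14177, and 13530 when at least 1 CPM was required in every pool. All 25 list sums moved by less than 1 SD under the 2 other scalings. Leaving out 1 of 6 pools cannot move a mean by as much as 1 SD, so that comparison says nothing of their stability, and the ovarian sum went from a mean of 152 to 102 CPM without control replicate 1.

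Of the 58 variable genes named in the report, 57 stayed variable under each of the 3 other scalings and 49 to 55 without any 1 of control replicates 2 to 6. Without control replicate 1, 53 of the 58 were tested and 18 stayed variable, while 18 of the 122 named genes that were not variable became so. The search for TATAAA on the gene strand alone, 50 to 10 bases before the start, gave 1.33% of all windows against 6.96% in the wider search, and 5.13% of windows of variable genes against 12.8%. The leading 25 genes by CPM shared 12 with the leading 25 per kb, and the latter shared 19 with the ranking by longest transcript. The 25 genes of highest CV shared 3 with those without control replicate 1 and 5 with those by median absolute deviation.

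No paired analysis was possible because a single group of pools is described, within which replicate numbers pair nothing. Depth limits the low genes most in control replicate 6, where 3 counts correspond to 0.426 CPM, and 0.0750 CPM in control replicate 3. Control replicate 5 carries a strong GC gradient, and control replicates 1 and 5 carry length gradients of opposite direction, which no scaling used here removes.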

Other observations

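The share of X-linked transcripts was not highest in the pool with the most Xist. The 1066 X-linked genes in the table, Xist among them, took 3.68% of the counts of control replicate 1, where Xist had 884 CPM, and 3.56% to 4.03% in the other pools, highest in control replicate 5. The relation of this share to Xist was not tested. Of the 568 X-linked genes kept, 17 (2.99%), Xist included, were variable by edgeR's goodness-of-fit test, against 2.19% of all genes kept. Replication histones, most of whose transcripts lack a poly(A) tail and are poorly captured by a poly(A) protocol, took 0.177% to 0.218% of counts, and 6 of 39 were kept. Genes with at least 10 counts numbered 16147 in control replicate 1 and 13706 in control replicate 6 at full depth. After each library was thinned to 7044531 counts, they numbered 13850 in control replicate 1 and 13641 to 13706 in the others.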
